A study of Mus musculus with 14 samples.

Results

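The BCL2 family of apoptosis genes was followed through 10 of its members in mouse mammary epithelial cells, by poly(A) RNA-seq. The members are Bcl2, Bcl2l1, Mcl1, Bax, Bak1, Bcl2l11, Bid, Bmf, Bad and Pmaip1. They were taken by gene symbol, and all 10 were found among the 23284 genes of each of the 2 expression tables. EpH4 is an established line from normal mouse mammary gland, and EpRas is the line obtained from it by transformation with oncogenic H-Ras. The first table held 8 libraries of untransfected cells, with 2 replicates each of EpH4 and EpRas cells, without or with 1 ng/ml TGF-β3 for 48 h. The second held 6 libraries of EpRas cells that had received the control siRNA siNC or 1 of 2 siRNA pairs against the ETS-family transcription factors Etv4 and Etv5, again without or with TGF-β, at 1 library per condition. All EpRas cells carried the H-Ras transgene, including those with siNC. EpH4 cells were cultured in 10% serum and EpRas cells in 4%, so the effects of the line and of the serum cannot be told apart. The replicates of the untransfected groups are described as biological, and the siRNA conditions have none.

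Proteins of this family decide whether the outer mitochondrial membrane stays intact. Guardians such as Bcl-2, Bcl-xL (the product of Bcl2l1) and Mcl-1 hold back the effectors Bax and Bak, which otherwise form pores and release cytochrome c. BH3-only proteins relay stress: Bim (the product of Bcl2l11) and truncated Bid can activate the effectors directly, whereas Bmf, Bad and Noxa (the product of Pmaip1) mainly occupy guardians. In mammary epithelium, Bim and Bmf are known for the clearing of cells that have lost contact with the matrix, and TGF-β is known to induce apoptosis in many epithelial cells. Much of the control of these proteins lies after transcription, which was not measured.

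Since the siRNAs were directed against ETS factors, the promoters of 4 members that carry the differences described further on are shown, each from 250 bases before to 50 bases after a RefSeq start site on GRCm38.p6. Promoters of 9 members were found, with 15 start sites, and the first start site is given for Bmf and Bcl2l11. Capitals mark CCGGAA, an extended form of the ETS motif, on either strand. The positions are chr2:118549637-118549936 on the minus strand for Bmf, chr1:106714241-106714540 on the minus strand for Bcl2, chr2:128125788-128126087 on the plus strand for Bcl2l11 and chr6:120916775-120917074 on the minus strand for Bid.
Bmf: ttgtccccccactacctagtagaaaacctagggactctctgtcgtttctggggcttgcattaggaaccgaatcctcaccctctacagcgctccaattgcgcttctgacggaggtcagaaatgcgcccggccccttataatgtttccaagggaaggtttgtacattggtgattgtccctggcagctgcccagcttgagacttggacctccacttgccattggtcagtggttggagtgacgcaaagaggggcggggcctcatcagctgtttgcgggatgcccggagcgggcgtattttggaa
Bcl2: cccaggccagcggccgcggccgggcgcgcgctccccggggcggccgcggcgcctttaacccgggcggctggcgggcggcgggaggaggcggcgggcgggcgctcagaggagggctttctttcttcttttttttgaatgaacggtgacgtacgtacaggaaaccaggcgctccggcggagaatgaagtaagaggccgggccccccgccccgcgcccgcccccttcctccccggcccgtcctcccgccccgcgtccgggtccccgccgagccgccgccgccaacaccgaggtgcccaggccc
Bcl2l11: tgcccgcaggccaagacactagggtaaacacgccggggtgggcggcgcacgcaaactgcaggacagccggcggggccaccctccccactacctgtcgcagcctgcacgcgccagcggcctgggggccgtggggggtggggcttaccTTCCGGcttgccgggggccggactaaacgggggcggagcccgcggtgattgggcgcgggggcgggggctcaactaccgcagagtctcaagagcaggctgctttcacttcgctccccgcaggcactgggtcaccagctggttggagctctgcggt
Bid: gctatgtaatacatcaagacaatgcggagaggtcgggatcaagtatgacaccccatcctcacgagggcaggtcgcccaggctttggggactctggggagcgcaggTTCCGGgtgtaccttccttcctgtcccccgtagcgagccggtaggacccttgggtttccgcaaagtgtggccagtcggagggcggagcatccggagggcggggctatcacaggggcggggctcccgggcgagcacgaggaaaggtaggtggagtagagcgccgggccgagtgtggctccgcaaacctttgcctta

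CCGGAA was found in the window of Bcl2l11 at position -104 and in that of Bid at position -145 relative to the start site. It was in neither printed window of Bmf and Bcl2. Shorter forms such as GGAA, which both of these windows contain, were not searched. CCGGAA was present in 5 of the 15 member windows, against 14.9% of the 32851 windows of all genes. TGANTCA, the AP-1 site, was in none of the member windows, against 7.81% of all windows, and CAGAC, the Smad box, was in 5 of the 15, against 49.6% of all windows. The motifs were searched on both strands, and none of them is contained in another. A match is only a run of letters in the window and says nothing on binding. In GENCODE annotation of GRCm38 the whole genes lie at chr2:118528757-118549687 (Bmf), chr1:106538178-106714274 (Bcl2), chr2:128126038-128162547 (Bcl2l11), chr6:120891930-120916853 (Bid) and chr2:152780668-152831728 (Bcl2l1). Exons of Bcl2, Bak1, Bid and Bad overlap genes on the opposite strand (D630008O14Rik, Ggnbp1, Bcl2l13 and Gpr137), and whether reads were counted by strand was not stated, so part of their FPKM may belong to these neighbours. Bax shares exon sequence with Gm45808 on its own strand.

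Before the members are described, the cells were checked against marker genes. Of 9 epithelial markers, 7 to 8 were at 1 FPKM (fragments scaled by exon length and by mapped depth) or more in every library, and those of leukocytes, endothelial cells and adipocytes summed to at most 8.13 FPKM. The epithelial sum was 5421 and 6584 FPKM in untreated and 10436 and 9757 FPKM in treated EpH4 cells, and 5315 and 4185 FPKM in untreated and 2562 and 4395 FPKM in treated EpRas cells, so that replicate 1 of the last group was the lowest. Fibroblast markers summed to 5.50 to 43.1 FPKM except in EpH4 cells treated with TGF-β, where they summed to 222 to 247 FPKM, with Thy1, Lum and Dcn at 0. That sum moved with TGF-β in EpH4 cells. In the siRNA libraries it moved with the knockdown, from 5.50 FPKM with siNC to 24.6 and 16.5 FPKM with the pairs in untreated cells and from 11.6 to 43.1 and 22.4 FPKM in treated cells, with Thy1 and Lum at 0. The part of either sum in the differences of the members was not tested. Relative depth, judged from the smallest steps of the FPKM values, varied from 0.609 to 1.36 among untransfected and from 1 to 1.74 among siRNA libraries, and the number of mapped reads was not given in the files. In bulk RNA, fewer cells expressing a gene and less RNA per cell cannot be told apart.

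Effector genes had the highest expression. Bax had the highest level of the 10 members in 14 of 14 libraries, and Bak1 was next in 13 of them. In untreated EpH4 cells the mean level of Bax was 259.8 ± 24.1 FPKM (SD, n = 2) and that of Bak1 was 116 ± 16.8 FPKM. Bid followed at 88.1 ± 6.95 FPKM and Bcl2l1 at 67.3 ± 4.21 FPKM. Bad at 34.2 ± 4.12 FPKM and Mcl1 at 32.1 ± 5.40 FPKM were within their spread of each other. The remaining 4 members were low, Bcl2 at 4.01 ± 0.144 FPKM, Bcl2l11 at 1.62 ± 0.385 FPKM, Bmf at 0.801 ± 0.171 FPKM and Pmaip1 listed at 0 in both libraries. In untreated EpRas cells the order differed in the middle, where Bcl2l1 at 95.5 ± 12.1 FPKM was within the spread of Bak1 at 109.7 ± 32.5 FPKM, and Bid at 47.7 ± 3.19 FPKM within that of Bad at 49.4 ± 6.97 FPKM. Low expression bears on what follows, because Bmf was represented by only 12 to 77 reads per untransfected library and Pmaip1 by 0 to 18.

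**Figure D1:**
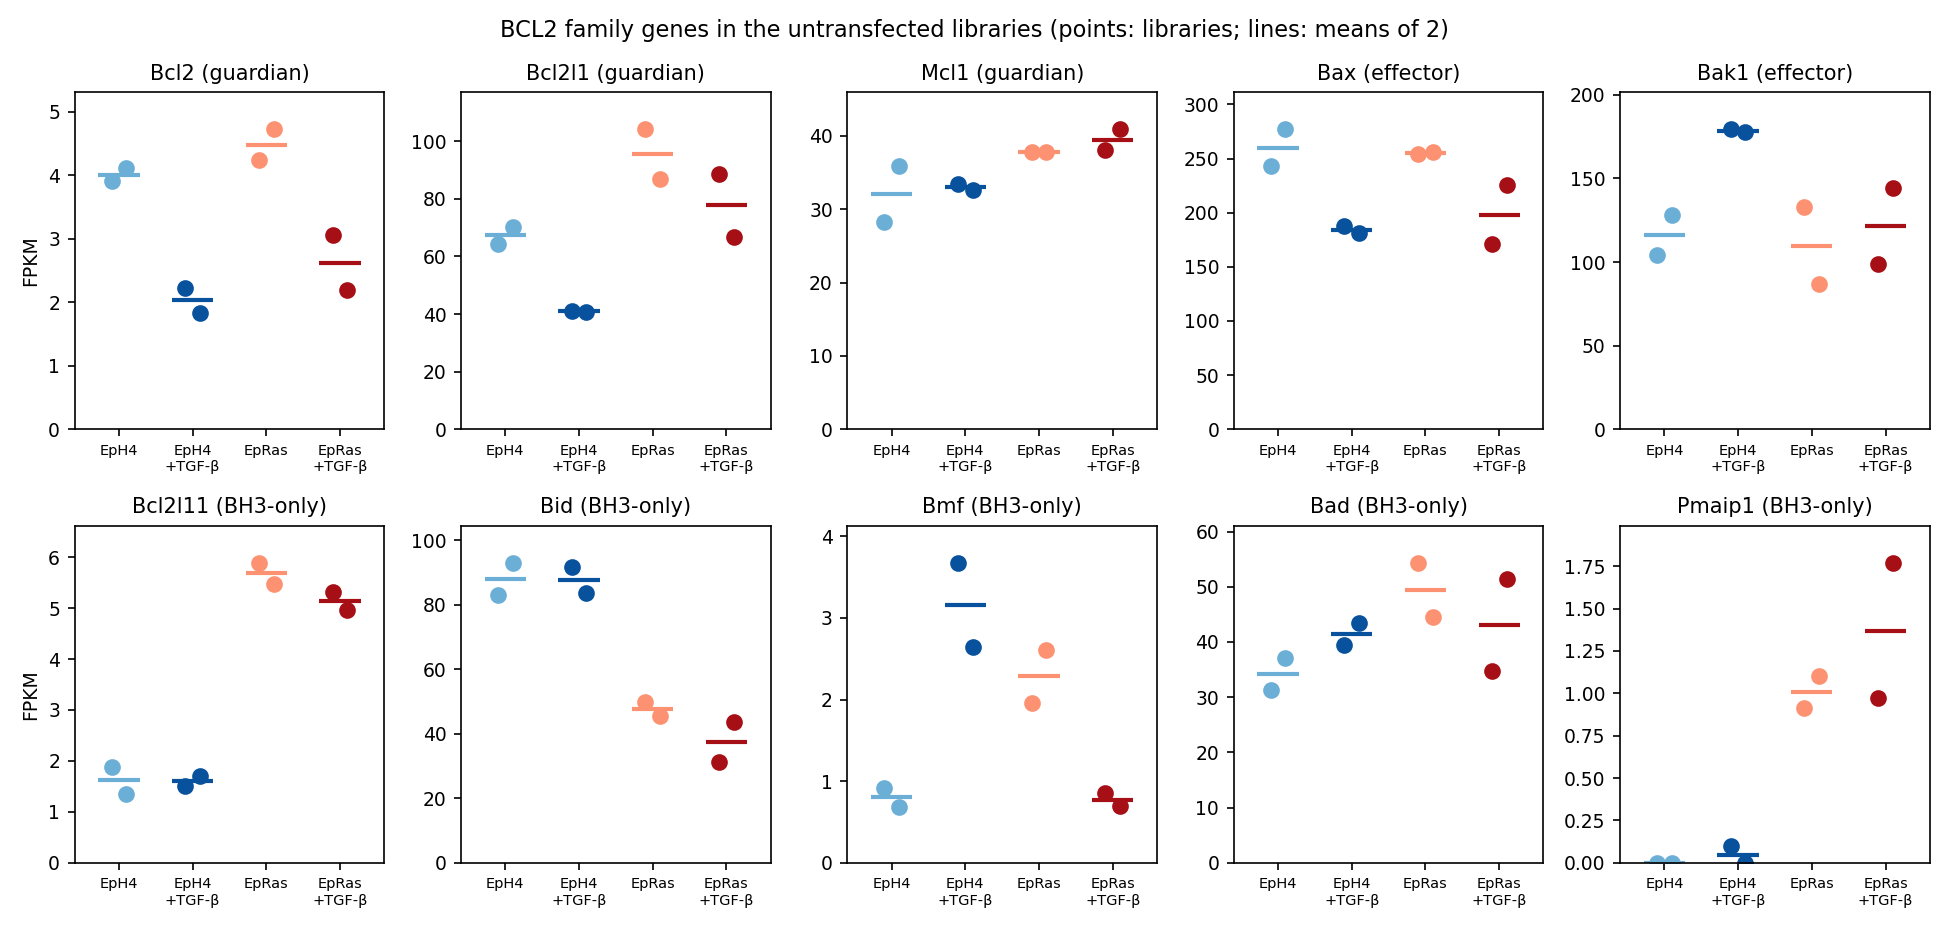
Expression of the 10 BCL2 family members in the untransfected libraries, in FPKM on linear axes that start at 0 and differ in scale, for untreated and TGF-β-treated EpH4 and EpRas cells, with points for libraries and lines for the means of 2 replicates. Bcl2l11 was at 4.95 to 5.89 FPKM in the EpRas libraries and at 1.35 to 1.89 FPKM in the EpH4 libraries, while Bmf went from 0.801 to 3.16 FPKM with TGF-β in EpH4 cells and from 2.28 to 0.771 FPKM in EpRas cells.

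EpRas cells were first compared with EpH4 cells, which addresses how the transformed line differs from its parent. Bcl2l11 was higher in EpRas cells and Bid was lower, both without and with TGF-β, and the guardian Bcl2l1 was higher with TGF-β. The expression of both effectors and of the guardian Mcl1 was not called different. Without TGF-β, 2 of the 7 members tested with limma on log2(FPKM + 1) were called at a Benjamini-Hochberg adjusted p below 0.05 over all genes, against a background of 17.6% of the genes tested. With TGF-β 3 of the 7 were called, against 21.3%. Bcl2, Bmf and Pmaip1 stayed below the level of 5 FPKM required in at least 1 library, and their values come from the fit of all genes without that requirement. Counted by libraries alone, all EpRas values were above all EpH4 values for 7 of the 10 members without TGF-β and below them for 1, where groups were separate for 61% of the genes tested. With TGF-β the counts were 4 above and 3 below, against 63%. Both shares are over genes that met the expression requirement, which Bcl2, Bmf and Pmaip1 did not.

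Among the guardians, Bcl2l1 was measured at 64.4 and 70.3 FPKM in untreated EpH4 cells and at 104 and 87.0 FPKM in untreated EpRas cells. After TGF-β treatment its values were 41.2 and 40.6 FPKM in EpH4 cells and 88.6 and 66.8 FPKM in EpRas cells. The EpRas libraries lay above the EpH4 libraries in both settings. The log2 difference was 0.90 ± 0.19 (SE) with TGF-β (adjusted p = 0.0134, limma) and 0.49 without it (adjusted p = 0.113). Leaving out either TGF-β-treated EpH4 library ended the call with TGF-β, at adjusted p = 0.0884 without replicate 1 and 0.0898 without replicate 2. Mcl1, whose protein is short-lived, was at 28.2 and 35.9 FPKM in untreated EpH4 cells and at 37.9 FPKM in both untreated EpRas libraries, a log2 difference of 0.24 that did not pass the test (adjusted p = 0.348). Bcl2 itself had log2 differences of 0.13 without and 0.25 with TGF-β, at 1.83 to 4.72 FPKM over the 8 libraries.

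The effectors gave no call in either setting. Bax was at 243 and 277 FPKM in untreated EpH4 cells and at 255 and 256 FPKM in untreated EpRas cells, so that the groups overlapped, with a ratio of means of 0.982. Bak1 was at 104 and 128 FPKM in untreated EpH4 cells and at 133 and 86.8 FPKM in untreated EpRas cells. With TGF-β, Bak1 was at 179 and 178 FPKM in EpH4 cells and at 98.8 and 144 FPKM in EpRas cells, which did not overlap, but the log2 difference of -0.58 did not pass the test (adjusted p = 0.161).

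Bcl2l11, which encodes Bim, had the largest difference of the 7 tested members. It was at 1.89 and 1.35 FPKM in untreated EpH4 cells and at 5.89 and 5.48 FPKM in untreated EpRas cells, and with TGF-β at 1.52 and 1.71 FPKM and at 5.32 and 4.95 FPKM. All 4 EpRas libraries lay above all 4 EpH4 libraries, by 3.52-fold without and 3.19-fold with TGF-β. The log2 differences were 1.36 ± 0.16 (SE, adjusted p = 0.00169) and 1.23 ± 0.16 (adjusted p = 0.00187), and no single library decided them. Bcl2l11 met the expression requirement only through the EpRas libraries, and without it the adjusted p of limma was 0.00234 and 0.00233.

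Bid, which is cleaved by caspase-8 and links death receptors to mitochondria, showed the opposite direction. It was at 83.1 and 93.0 FPKM in untreated EpH4 cells and at 50.0 and 45.4 FPKM in untreated EpRas cells, and with TGF-β at 91.6 and 83.7 FPKM and at 31.2 and 43.7 FPKM. Every EpRas library was thus below every EpH4 library, by 1.85-fold without and 2.34-fold with TGF-β. The log2 difference was -0.87 ± 0.19 (SE, adjusted p = 0.0217) without and -1.22 ± 0.19 (adjusted p = 0.00436) with TGF-β. The second call remained whichever library was left out (adjusted p = 0.00333 to 0.0467). The first was lost without either untreated EpH4 library (0.0677 and 0.113), either treated EpH4 library (0.0514 each) or either untreated EpRas library (0.0800 and 0.109).

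Bmf, a BH3-only protein kept at the cytoskeleton in unstressed cells, changed direction between the settings. It was at 0.922 and 0.680 FPKM in untreated EpH4 cells and at 1.95 and 2.61 FPKM in untreated EpRas cells, but with TGF-β at 3.67 and 2.65 FPKM in EpH4 cells and at 0.851 and 0.691 FPKM in EpRas cells. The groups did not overlap in either setting. In reads, the ratio of EpRas to EpH4 cells was 3.04 (95% exact interval 2.15 to 4.37, counting error only) without TGF-β and 0.255 (0.167 to 0.378) with it. In the fit of all genes, where 14.7% and 18.1% of genes were called, the log2 differences were 0.86 ± 0.17 (adjusted p = 0.0246) and -1.22 (adjusted p = 0.00638). The first was lost without either untreated EpH4 library (0.0856 and 0.135) or either untreated EpRas library (0.0706 and 0.120) and with a pseudocount of 5 FPKM (0.0566), and the second was kept without any 1 library.

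Pmaip1, a p53 target encoding Noxa, was listed at 0 in both untreated EpH4 libraries and at 0.912 and 1.10 FPKM in untreated EpRas cells. TGF-β-treated cells had 0.0962 and 0 FPKM for EpH4 and 0.971 and 1.77 FPKM for EpRas. Reads of this gene were nearly confined to EpRas cells. Without TGF-β there were 26 against 0, with an exact interval of the ratio from 8.87 upwards (counting error only). With TGF-β there were 29 against 1, a ratio of 34.1 (exact interval 5.66 to 1394). Fitted log2 differences were 1.00 (adjusted p = 0.0162, limma) and 1.16 (adjusted p = 0.00801). Their spread is shared by all groups, and untreated EpH4 cells, with both libraries at 0, add none to it. The adjusted p may therefore be too low. The first call was lost without either EpH4 or EpRas untreated library or either treated EpH4 library (0.0556 to 0.0998). It was also lost with a pseudocount of 5 FPKM (0.0596). The second was lost without either treated EpH4 library (0.0623 and 0.0738). Bad, which is held inactive by phosphorylation and 14-3-3 binding, was at 31.3 and 37.1 FPKM in untreated EpH4 cells and at 54.3 and 44.5 FPKM in untreated EpRas cells. These were separate, but the log2 difference of 0.51 did not pass the test (adjusted p = 0.158).

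**Figure D2:**
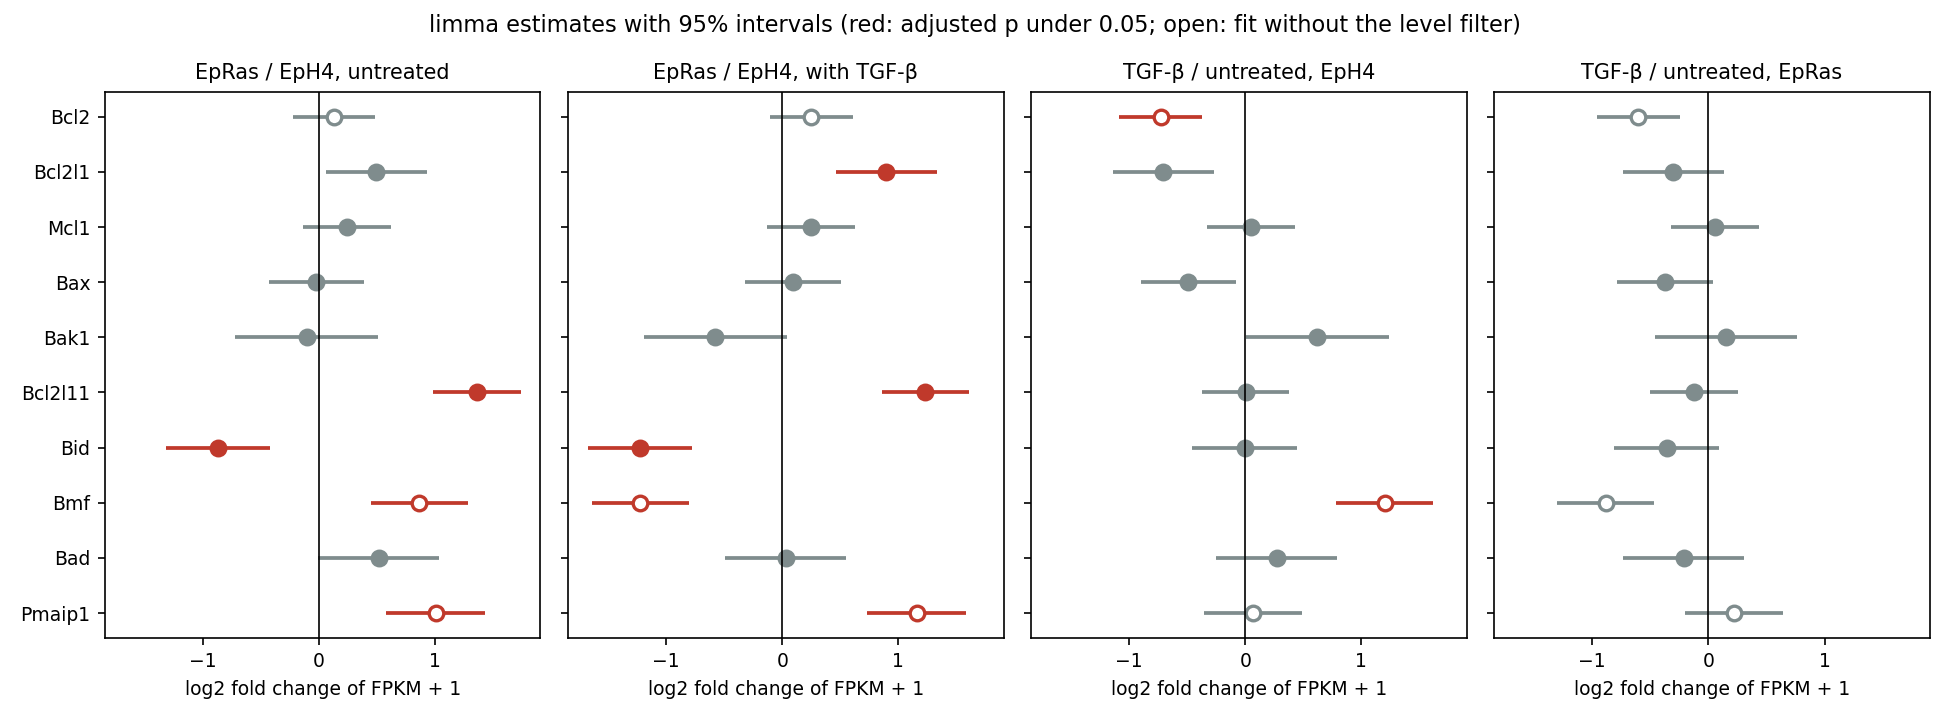
Fold changes of the 10 members on the scale of log2(FPKM + 1) with 95% intervals from limma, for EpRas against EpH4 cells and for TGF-β against no treatment, in red where the adjusted p is below 0.05 and with open points for Bcl2, Bmf and Pmaip1, which come from the fit of all genes. Bcl2l11 lies at 1.36 and 1.23 and Bid at -0.87 and -1.22 between the lines, and Bmf at 1.20 and -0.88 with TGF-β in EpH4 and EpRas cells.

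TGF-β was compared with no treatment within each line. Of the 7 members above the expression level, 0 were called in EpH4 cells and 0 in EpRas cells by limma, against 9.4% and 3.82% of the genes tested. At an unadjusted p below 0.05, 3 members passed in EpH4 cells, against 23.9% of genes, and 0 in EpRas cells, against 15.8%. Fewer passed in EpH4 cells when any 1 of the EpH4 libraries was left out. In EpRas cells some passed without either treated EpRas library. Without the expression requirement 2 members were called in EpH4 cells, Bmf higher and Bcl2 lower, against 7.27% of genes. By libraries, 3 members were separate above and 3 below in EpH4 cells, against 60.6% of genes in either direction. In EpRas cells 1 was above and 5 below, against 39.4%. These counts include Bcl2, Bmf and Pmaip1, whereas the shares are over genes that met the expression requirement.

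In EpH4 cells the 3 members that passed without adjustment were 1 guardian and both effectors. Bcl2l1 went from 64.4 and 70.3 FPKM to 41.2 and 40.6 FPKM, a log2 change of -0.70 (adjusted p = 0.0588). Its test passed with only the 4 EpH4 libraries in the fit (adjusted p = 0.0375) and with a pseudocount of 5 FPKM (0.0467). It also passed without either treated EpRas library, but not when any 1 of the EpH4 or untreated EpRas libraries was left out. With the replicate number as a block it did not pass either. Leaving out single libraries moved its log2 change between -0.77 and -0.64. Bax, at 187 and 181 FPKM after treatment against 243 and 277 FPKM before, had a log2 change of -0.49 (adjusted p = 0.142). Bak1, at 179 and 178 FPKM against 104 and 128 FPKM, had one of 0.62 (adjusted p = 0.204). The ratio of Bax to Bak1 was thereby 2.33 and 2.16 in the untreated and 1.04 and 1.02 in the treated libraries. None of these groups overlapped. Bcl2l11, Bid and Mcl1 had ratios of treated to untreated means of 0.996, 0.996 and 1.03.

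Bcl2 and Bmf, both below the expression level, were called in EpH4 cells in the fit of all genes. Bcl2 went from 3.90 and 4.11 FPKM to 2.22 and 1.83 FPKM, a log2 change of -0.73 ± 0.14 (SE, adjusted p = 0.0400). This was lost without any 1 of the 4 EpH4 libraries (0.138 to 0.199) or without either untreated EpRas library (0.0889 each). It was also lost with a pseudocount of 0.1 FPKM (0.0693). Bmf went from 0.922 and 0.680 FPKM to 3.67 and 2.65 FPKM, a log2 change of 1.20 (adjusted p = 0.0150), or a read ratio of 3.91 (exact interval 2.80 to 5.54, counting error only). Its call was lost without any 1 of the 4 EpH4 libraries (0.0529 to 0.103).

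In EpRas cells no member was called by limma without the expression requirement either, against 2.6% of genes, and 3 passed at an unadjusted p below 0.05, against 14.9%. Bmf went the other way there, from 1.95 and 2.61 FPKM to 0.851 and 0.691 FPKM, without overlap, with a read ratio of 0.328 (0.213 to 0.493) and a log2 change of -0.88 (adjusted p = 0.0650). Bcl2 was at 4.23 and 4.72 FPKM before and 3.06 and 2.19 FPKM after treatment, a log2 change of -0.60 (adjusted p = 0.116). Bcl2l1 was at 104 and 87.0 FPKM before and 88.6 and 66.8 FPKM after treatment, so that the groups overlapped. Bax was at 255 and 256 FPKM before and 171 and 225 FPKM after treatment, a log2 change of -0.38 (adjusted p = 0.366). The treated EpRas libraries lay farther apart than those of any other group for Bcl2l1 and Bax, with SDs of 15.4 and 38.2 FPKM against 0.457 to 12.1 FPKM for Bcl2l1 and 0.805 to 24.1 FPKM for Bax in the other groups.

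Whether TGF-β acted differently in the lines was tested by the difference of its effects. For Bmf this was -2.08 ± 0.24 (log2, SE, adjusted p = 0.0317, limma in the fit of all genes), where 0.768% of genes were called. It failed without any 1 of the 8 libraries (0.0806 to 0.154) and with a pseudocount of 5 FPKM (0.0551). It failed with the replicate number as a block too (0.104). Of the 7 members above the expression level, 0 were called and 0 passed at an unadjusted p below 0.05, against 0.802% and 10.9% of genes. Among single libraries left out, only the removal of treated EpRas replicate 2 let some of them pass unadjusted. More of all genes passed then as well.

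The siRNA libraries addressed what Etv4 and Etv5 contribute in EpRas cells. Etv4 was at 57.4 FPKM with siNC and at 11.6 and 27.9 FPKM with pairs 1 and 2 in untreated cells. In treated cells its values were 64.3, 12.6 and 18.9 FPKM. The remaining share of Etv4 was therefore 20.2% and 48.5% without and 19.6% and 29.4% with TGF-β. Etv5 was at 8.85, 1.61 and 1.26 FPKM in untreated and 5.34, 1.24 and 1.20 FPKM in treated cells, with 14.2% to 23.2% remaining. Both targets were thus reduced in all 4 libraries, with more Etv4 left by pair 2. In untransfected cells Etv4 was at 34.9 to 46.4 FPKM in EpH4 and at 62.2 to 71.7 FPKM in EpRas cells.

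Bmf and Bcl2 were at least 1.5-fold higher than with siNC in all 4 knockdown libraries. Counting members at least 1.5-fold from siNC with both pairs, a limit chosen after the values were seen, Bmf and Bcl2 were above it both without and with TGF-β, and none of the 10 was below. After adding 1 FPKM, the scale of the test, the ratio of Bcl2 with pair 2 and TGF-β was 1.47, under that limit. Over all genes 7.97% were that much higher without TGF-β, 6.66% with TGF-β and 2.27% in both. The lower shares were 8.62%, 8.15% and 3.65%. In the additive limma model over the 6 libraries, which takes its error from libraries of unlike conditions, 0 of the 10 members were called for the knockdown, against 2.12% of the genes tested. At an unadjusted p below 0.05, 2 passed, against 22.7%. The share of all genes called fell when any 1 of the 6 libraries was left out, and no member was called then.

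Bmf was at 1.37 FPKM with siNC and at 7.33 and 7.07 FPKM with pairs 1 and 2 without TGF-β. In the treated cells its values were 1.61, 3.55 and 2.97 FPKM in the same order. All 4 knockdown libraries were above both control libraries. The read ratios were 5.37 (exact interval 3.92 to 7.50) and 5.17 (3.77 to 7.24) without TGF-β and 2.21 (1.70 to 2.88) and 1.85 (1.40 to 2.45) with it, covering counting error only, from 45 reads with siNC and 328 and 296 with the pairs without TGF-β. The model gave a log2 difference of 1.25 ± 0.26 (SE, adjusted p = 0.0668). Leaving out 1 library at a time moved this difference between 0.706 and 1.79. Bmf met the expression requirement only through the knockdown libraries, and without that requirement the adjusted p was 0.113.

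Bcl2, the guardian first found in follicular lymphoma, was at 2.74 FPKM with siNC and at 5.00 and 6.21 FPKM with the pairs in untreated cells, against 1.96, 3.44 and 3.33 FPKM in treated cells. The ratios of the pairs to siNC were 1.82 and 2.26 without and 1.76 and 1.70 with TGF-β. The log2 difference was 0.69 ± 0.16 (SE, adjusted p = 0.0844). It too reached 5 FPKM only with the knockdown, and without that requirement the adjusted p was 0.0856. The authors' 95% intervals of single libraries overlapped for Bcl2, 0.626 to 4.86 FPKM with siNC against 1.72 to 8.28 and 2.24 to 10.2 FPKM with the pairs, and were separate for Bmf, 0.225 to 2.51 FPKM against 3.40 to 11.3 and 3.25 to 10.9 FPKM, all without TGF-β. With TGF-β those of Bmf overlapped, 0.265 to 2.95 FPKM with siNC against 1.30 to 5.79 and 0.982 to 4.96 FPKM.

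The other guardians were near the control without TGF-β, with ratios of 1.02 and 1.04 for Bcl2l1 and of 0.885 and 0.896 for Mcl1. With TGF-β, Bcl2l1 was at 68.1 FPKM with siNC and at 52.1 and 48.6 FPKM with the pairs. Bax was at 226 FPKM with siNC, 416 with pair 1 and 234 FPKM with pair 2 without TGF-β, so that 1 pair alone stood apart. Pmaip1 differed between the pairs, at 3.35 FPKM with siNC, 3.76 with pair 1 and 1.12 FPKM with pair 2 in untreated cells, against 5.55, 6.17 and 2.40 FPKM in treated cells. Bak1, Bid and Bad were within 0.826 to 1.32 of the control with either pair. Bcl2l11 was above siNC without TGF-β (ratios 1.19 and 1.57) and below it with TGF-β (0.767 and 0.807), with 1 library behind each value.

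**Figure D3:**
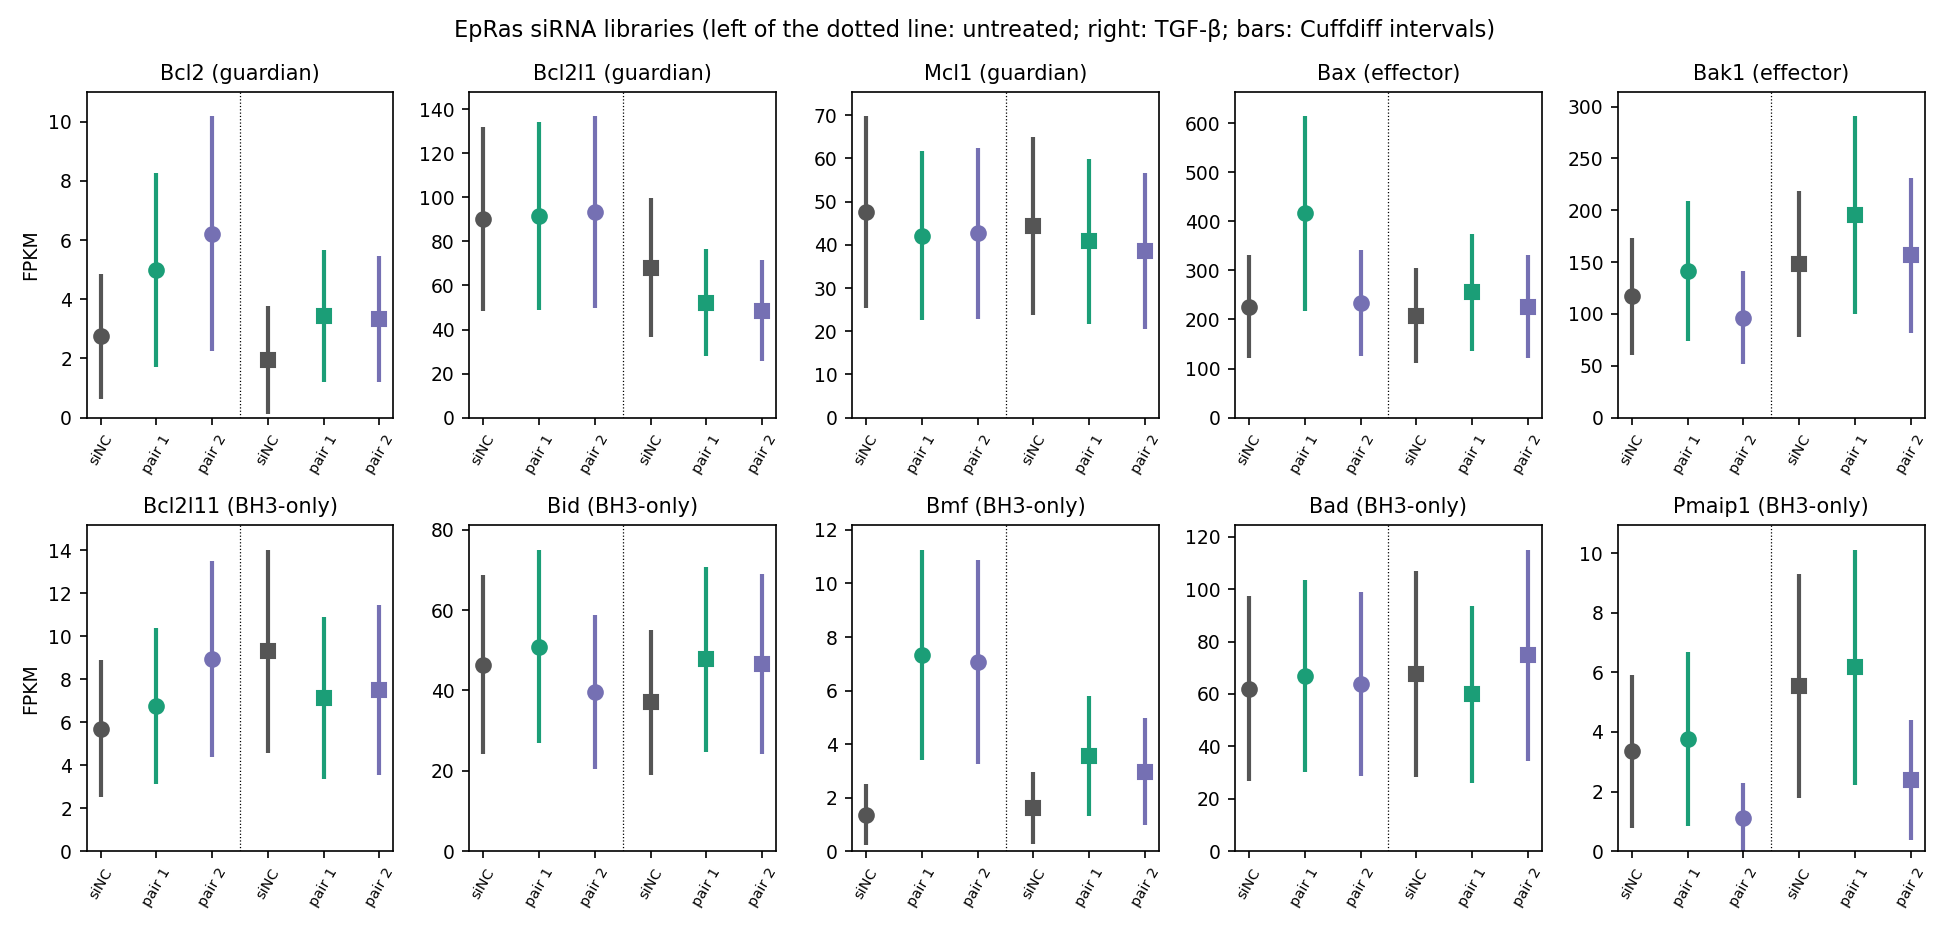
Expression of the 10 members in the 6 siRNA-transfected EpRas libraries, in FPKM on linear axes from 0, with siNC and siRNA pairs 1 and 2, untreated on the left (circles) and TGF-β-treated on the right (squares) of the dotted line, where each point is 1 library and each bar the 95% interval that Cuffdiff gave. Bmf is at 7.33 and 7.07 FPKM with the pairs against 1.37 FPKM with siNC without TGF-β, and Bcl2 at 5.00 and 6.21 against 2.74 FPKM.

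The TGF-β term of the same model gave 0 of 10 calls, against 2.5% of genes, with 3 passing at an unadjusted p below 0.05, against 17.8%. Here too the share of all genes called fell when any 1 library was left out. Bcl2l1 had a log2 change of -0.71 ± 0.16 (SE, adjusted p = 0.0876), with treated levels 0.756 of the untreated with siNC and 0.569 and 0.521 with the pairs. Bcl2 had a log2 change of -0.50 (adjusted p = 0.163), with 0.713, 0.688 and 0.536. Bak1 had one of 0.50 (adjusted p = 0.270), with 1.27, 1.38 and 1.62. Pmaip1 had read ratios of 1.66 (exact interval 1.23 to 2.26), 1.64 (1.26 to 2.15) and 2.14 (1.32 to 3.55) for siNC, pair 1 and pair 2, covering counting error only, and a log2 change of 0.62 in the model (adjusted p = 0.476). For Bmf the ratio of reads was 1.17 (0.814 to 1.72) with siNC, an interval that includes 1, but 0.483 and 0.421 with the pairs. The ratio with siNC stood beside 0.328 in untransfected EpRas cells. The tables were normalised separately, but each ratio was taken within a table, and the difference between the ratios was not tested.

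Adding FPKM by role gave the balance of guardians and BH3-only genes in each library, a sum at the mRNA level only and without a test. The effectors took 57.1% to 63.5% of the summed FPKM of the 10 members in untransfected cells. The sum of guardians over that of BH3-only genes was 0.823 and 0.835 in untreated EpH4 cells and 0.564 and 0.571 after TGF-β. It was 1.29 and 1.31 in untreated EpRas cells and 1.77 and 1.07 after TGF-β. Every untransfected EpRas library was above 1 and every EpH4 library below. In the siRNA table it was 1.18, 1.02 and 1.18 with siNC, pair 1 and pair 2 without TGF-β, and 0.944, 0.775 and 0.674 with TGF-β. Of their roles Bcl2l1 and Bid had the highest mean over the untransfected libraries, although Bad exceeded Bid in the mean of EpRas cells without and with TGF-β and in all 6 siRNA libraries. With Bcl2l1 and Bid left out, the group means of the guardian to BH3-only ratio were 0.981 and 0.760 in EpH4 cells without and with TGF-β. In EpRas cells they were 0.731 and 0.856. The EpRas means thus no longer exceeded 1, and without TGF-β the EpRas mean lay below the EpH4 mean.

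**Figure D4:**
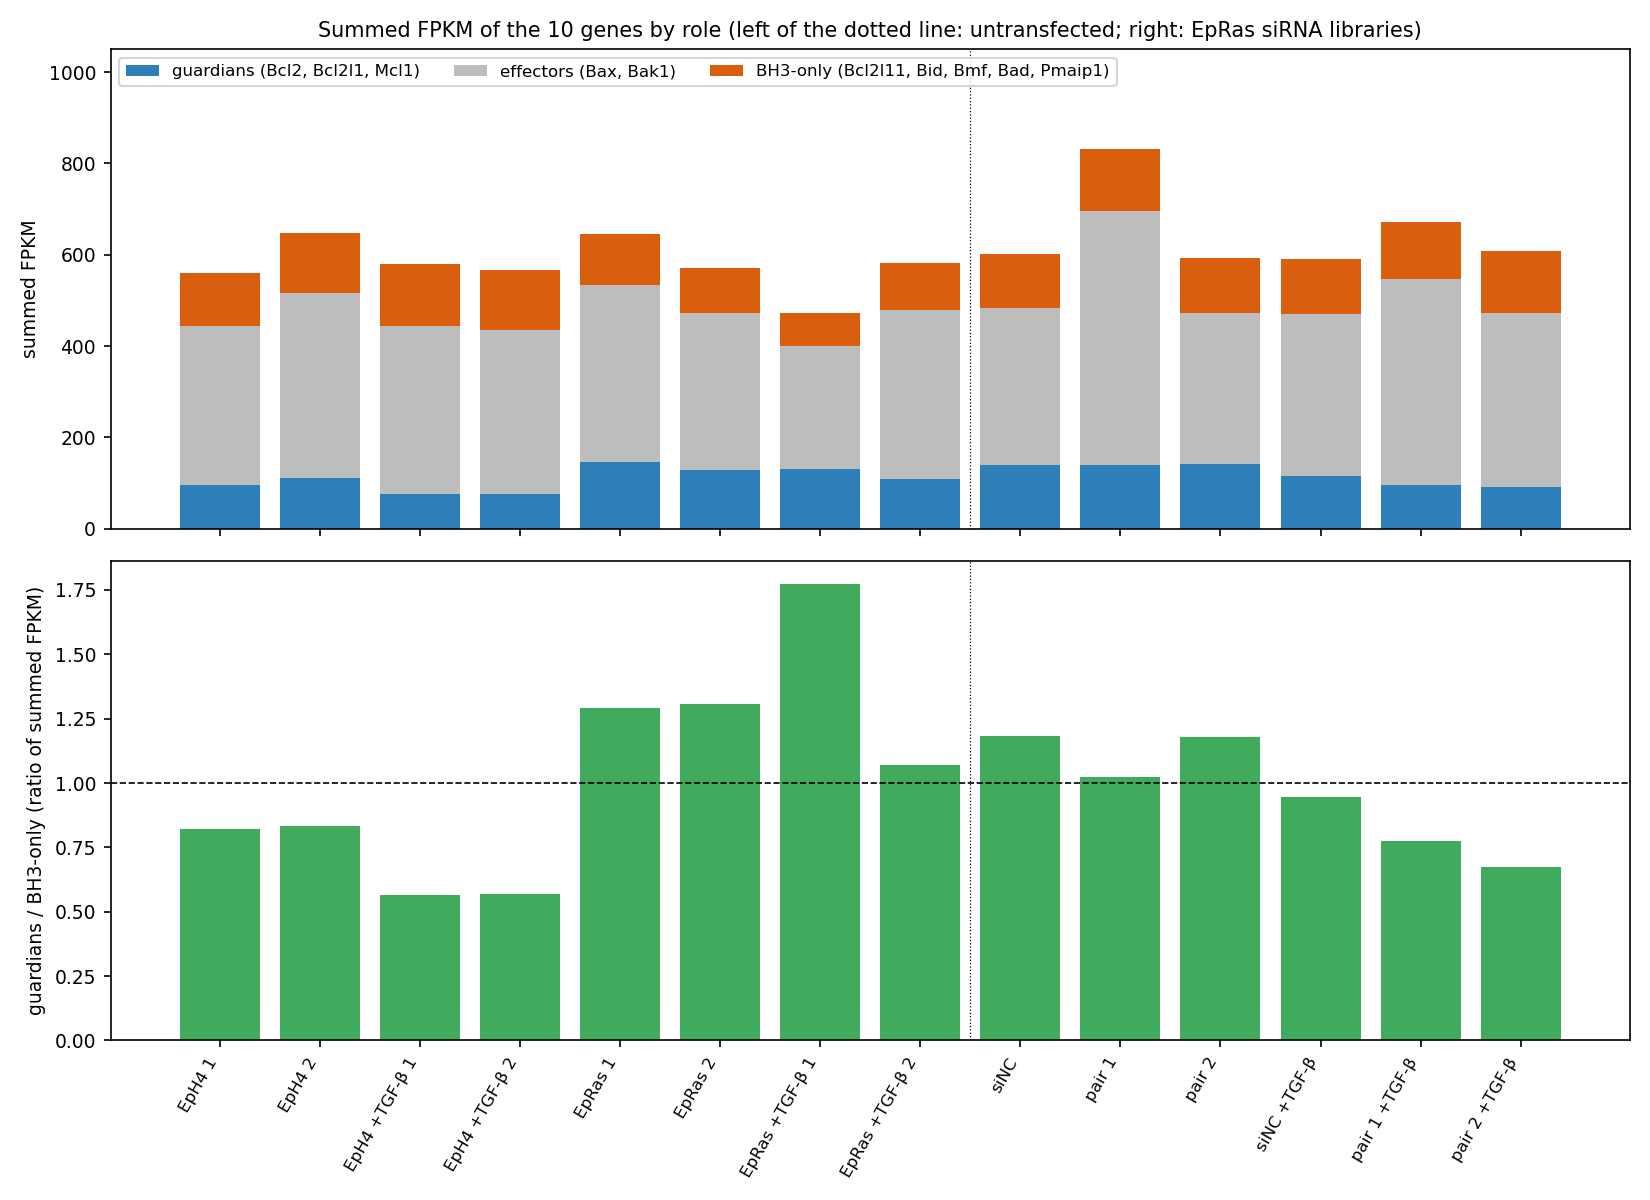
Summed FPKM of guardians, effectors and BH3-only genes as stacked bars (top) and the ratio of the guardian to the BH3-only sum as bars (bottom, dashed line at 1) in each of the 14 libraries, with the separately normalised tables on either side of the dotted line. In the ratio, the EpH4 libraries lie between 0.564 and 0.835 and the untransfected EpRas libraries between 1.07 and 1.77. With Bcl2l1 and Bid left out (not shown), the order turns in untreated cells, with means of 0.981 in EpH4 and 0.731 in EpRas cells.

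Other genes of the pathway were taken from 7 lists, of which 65 entries could be tested in untransfected cells and 66 in the siRNA libraries. Bbc3 stands on the list of other BCL2 family members and on that of the p53 pathway. In untransfected cells it was counted in each. Between the lines 9 (13.8%) were called without TGF-β and 9 with it, against 17.6% and 21.3% of all genes tested. Without adjustment 20 (30.8%) and 17 (26.2%) passed, against 32.6% and 35.8%, so that each share of the lists was below that of all genes. Of 9 tested other members of the BCL2 family, 2 were higher and 1 lower in EpRas cells in both settings, with median log2 differences of -0.11 and 0.12 against -0.00 over all genes without TGF-β. Bok, an effector-like protein, rose by 1.97 (adjusted p = 0.000377) without TGF-β and by 1.42 (adjusted p = 0.00123) with TGF-β. Its levels were 4.90 to 8.51 FPKM in EpH4 cells and 20.8 to 27.2 FPKM in EpRas cells. Bnip3, a mitophagy receptor induced by hypoxia, rose by 1.50 (adjusted p = 0.00609) and 1.89 (adjusted p = 0.00162). Bik, a BH3-only protein of the endoplasmic reticulum, had differences of -2.01 (adjusted p = 0.00766) and -3.42 (adjusted p = 0.000516), at 4.36 to 11.5 FPKM in EpH4 cells against 0 to 1.13 FPKM in EpRas cells. Bik reached the expression requirement only in EpH4 cells, and in the fit of all genes its adjusted p was 0.0186 and 0.00259. The call of Bik without TGF-β was lost without replicate 2 of untreated EpH4 cells (adjusted p = 0.0565).

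Of 13 tested caspases and mitochondrial factors, 1 was higher and 3 were lower without TGF-β, and 1 was higher and 1 lower with it. Of 4 inhibitors of apoptosis tested, Birc3, which encodes cIAP2, fell by 1.83 on the log2 scale (adjusted p = 0.000446) without TGF-β and had a difference of -2.34 (adjusted p = 0.000104) with it. It too passed the expression requirement only in EpH4 cells, with an adjusted p of 0.000970 and 0.000366 in the fit of all genes. In the death receptor list, 1 of 9 was higher without TGF-β, Cflar, the caspase-8 inhibitor (0.95, adjusted p = 0.00451), and with TGF-β 1 was higher and 2 were lower, among them Fas (-1.55, adjusted p = 0.0117), whose call was lost without either treated EpH4 library (0.0552 and 0.0898) or treated EpRas replicate 1 (0.0554). Fas passed the expression requirement through EpH4 cells alone, and in the fit of all genes its adjusted p was 0.0246. The p53 pathway genes, kinases and 14-3-3 proteins acting on Bad, and regulators of Mcl1 and Bim turnover gave 0 limma calls in both settings. In the same order, 3, 2 and 1 of them passed unadjusted without TGF-β and 1, 3 and 1 with it.

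With TGF-β, 4 of the 65 entries (6.15%) were called in EpH4 cells and 1 (1.54%) in EpRas cells, against 9.4% and 3.82% of all genes. Unadjusted, 16 (24.6%) and 7 (10.8%) passed, against 23.9% and 15.8%. Sfn, the 14-3-3σ protein of epithelia, had the largest of these changes. It went from 39.0 and 37.3 FPKM to 419 and 362 FPKM in EpH4 cells (log2 3.32, adjusted p = 0.000761) and from 64.1 and 68.8 to 138 and 278 FPKM in EpRas cells (log2 1.55, adjusted p = 0.0367). Birc3 (0.94, adjusted p = 0.0138) and the cell cycle inhibitor Cdkn1a (0.70, adjusted p = 0.0387) also rose in EpH4 cells, and the DNA repair enzyme Parp1 had a change of -0.69 (adjusted p = 0.0386). Leaving out 1 library at a time ended the call of Sfn in EpRas cells in 6 of 8 cases (adjusted p up to 0.225), of Birc3 in 4 (0.140), and of Cdkn1a and Parp1 in 6 each (0.249 and 0.245). Of 66 list entries tested in the siRNA libraries, 2 (3.03%) were called for the knockdown and 3 (4.55%) for TGF-β. The shares of all genes were 2.12% and 2.5%. Without adjustment 13 (19.7%) and 10 (15.2%) passed, against 22.7% and 17.8%. Bok rose by 1.05 with the knockdown (adjusted p = 0.0382), at 16.6 and 26.9 FPKM with siNC and 33.3 to 58.5 FPKM with the pairs. The p53 target Trp53inp1 had a difference of -1.32 (adjusted p = 0.0297), but it reached 5 FPKM only with siNC (9.35 and 6.19 FPKM, against 1.51 to 3.42 FPKM with the pairs), and in the fit of all genes its adjusted p was 0.0574. The TGF-β term called Sfn (2.31, adjusted p = 0.0139), Bnip3 (-1.25, adjusted p = 0.0372) and Perp (-0.89, adjusted p = 0.0494). The calls of Bok, Trp53inp1, Bnip3 and Perp were lost without any 1 of the 6 libraries (adjusted p up to 0.275, 0.251, 0.184 and 0.199), and that of Sfn without 4 of them (0.102). In the fit of all genes Bok (0.0610), Bnip3 (0.0928), Sfn (0.0618) and Perp (0.0814) were not called in the siRNA libraries, nor was Sfn with TGF-β in untransfected EpRas cells (0.0751).

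For the 3 members called between the lines, the genes of most similar pattern were named by Pearson's r of log2(FPKM + 1) over the 8 untransfected libraries. Those nearest to Bcl2l1 were Cinp (0.986), Dhrs7b (0.983) and Mtmr10 (0.972). For Bcl2l11 they were Cd97 (0.996), Cldn9 (0.992) and Cdh2 (0.991), and for Bid they included B4galnt1 and Grb7 (0.992 each). The 8 libraries form 4 groups of 2, and these values mainly describe which genes share the order of the groups.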

How the data were processed

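Poly(A) RNA was sequenced directionally on an Ion Proton. The authors aligned reads to mm10 with TopHat2 2.0.11 and Bowtie2 2.2.2.2 (versions per the submitters' processing notes), and deposited FPKM per gene from Cuffdiff (Cufflinks 2.2.0) with 95% intervals, in separate tables for untransfected and siRNA-transfected cells, which were compared only within a table. Isoforms were not separated. Depth was not given, and relative depth and whole reads (within 0.05 of a whole number) were taken from the steps of low FPKM values. Here genes with status OK and at least 5 FPKM in at least 1 library of a table were tested (9100 and 9094 genes) on log2(FPKM + 1) with limma 3.58.1 in R 4.3.3, with Benjamini-Hochberg adjustment and calls at adjusted p below 0.05. The pseudocount understates changes of low genes. The untransfected fit had 1 mean per group, and the siRNA fit had additive terms for knockdown and TGF-β. Bcl2, Bmf and Pmaip1 in untransfected cells were taken from the fit of all 15244 genes. Exact binomial intervals of read ratios cover counting error only. Alternatives were pseudocounts of 0.1 and 5 FPKM, no filter or a mean of at least 10 FPKM, median centring, a replicate block, only the groups compared, and leaving out each library. The fits were tested on simulated data. Members and gene lists were chosen with earlier results of these data known. All members were named, and of the lists the genes called with a log2 change of at least 1, at most 4 per list and direction, or otherwise up to 2 called genes. For likeness of pattern, the 3 genes of highest Pearson's r were chosen. Some genes that these rules select are not reported here.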

Additional observations from a re-analysis of the deposited data

Results flagged for a closer look

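The change of Bmf with TGF-β differed between EpRas and EpH4 cells by -2.08 on the log2 scale in the fit of all genes, by the test of the difference itself (adjusted p = 0.0317, limma), a call that was lost without any 1 of the 8 libraries (0.0806 to 0.154), with a pseudocount of 5 FPKM (0.0551) and with the replicate block (0.104). In siNC-transfected EpRas cells the read ratio of Bmf with TGF-β was 1.17 (exact interval 0.814 to 1.72, counting error only). For Pmaip1 the siRNA pairs lay on opposite sides of siNC both without TGF-β (ratios 1.12 with pair 1 and 0.335 with pair 2) and with it (1.11 and 0.432), and this difference between the pairs was not tested. The read ratios with pair 1 had exact intervals that include 1 (0.804 to 1.58 and 0.890 to 1.39, counting error only). Those with pair 2 did not (0.203 to 0.538 and 0.312 to 0.589).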

How the results depend on the processing

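The number of members called between EpRas and EpH4 cells without TGF-β was 2, and became 1 with a mean of at least 10 FPKM, 4 without a filter and 1 to 2 without single libraries. With TGF-β it was 3, and became 5 without a filter, 2 with a mean of at least 10 FPKM and 2 to 3 without single libraries. For TGF-β in EpH4 cells it was 0, and became 2 without a filter, 1 with only the groups compared, 1 with a pseudocount of 5 FPKM and 0 to 1 without single libraries. For the difference of the TGF-β effects it was 0, and became 1 without a filter. In these cases the number of genes or samples tested, or the weight of low values, was what changed. The mean ratio of guardians to BH3-only genes without Bcl2l1 and Bid became 0.981 and 0.760 in EpH4 cells and 0.731 and 0.856 in EpRas cells. The labels give same-numbered libraries only a number, and whether these were handled together was not stated. Correlations of their deviations lay between -0.347 and 0.0785 over 6 pairs of groups. With the replicate block 2, 3, 0, 0 and 0 members were called in the 5 untransfected comparisons, as without it. Without a filter the replicate block took the adjusted p of Bid between the untreated lines to 0.0505, that of Bcl2 with TGF-β in EpH4 cells to 0.0791, and that of the difference for Bmf to 0.104. Over 707 alternatives of 51 single-gene results, 564 kept direction and side of the threshold, 139 lost and 4 gained the call, and 0 reversed. These results were taken for a low unadjusted p in their starting fit or, for list genes, for a call. A reversal was therefore unlikely from the start. Those kept include results that were never called. Some alternatives left out a library of neither group compared, which leaves the log2 difference as it was. Depth limits Bmf and Pmaip1, at 0 to 77 reads per untransfected library.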
